A study of Mus musculus with 6 samples.

Results

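Rab GTPases are small proteins that switch between a GTP-bound and a GDP-bound state and mark the membranes of the cell, each on its own set of vesicles or organelles. In the GTP-bound state they recruit effectors, such as tethers and motors, that move a vesicle and dock it at the next membrane. In an epithelial cell that carries a primary cilium, a sensory projection of the cell surface, Rab11 vesicles bring the exchange factor Rabin8 to the base of the cilium, where Rab8 becomes active and the ciliary membrane is extended. The Rab genes described here were all protein-coding genes of the count table whose mouse symbol is Rab followed by digits and at most a letter or a letter and a digit. The rule uses names alone and found 59 genes among the 32061 of the table. They were placed in 5 role classes from textbook knowledge, 7 ciliary, 11 recycling, 10 secretory, 11 of the endoplasmic reticulum (ER) and Golgi and 15 endolysosomal, and the remaining 5 were kept apart as other Rabs.

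Poly-A RNA of 6 samples of mouse biliary epithelial cells, which line the bile ducts, was sequenced. The cells came from picked bile ducts, were grown as organoids for 4 to 5 passages and were then moved to collagen-coated plates. In 3 samples, labelled as competent for primary cilia, the treatment label is -4OHT. In the other 3, labelled as depleted of primary cilia, it is +4OHT. The abbreviation commonly stands for 4-hydroxytamoxifen, with which tamoxifen-dependent Cre recombinases are activated. The columns of the count table are named WT, taken as competent, or KO, taken as depleted, without naming a gene. The sample labels give no genotype, strain, age, Cre driver or deleted gene. They leave the origin of the replicates (cultures, mice) unstated, so p-values reflect the spread between these 6 samples alone, which may be technical. The drug and the loss of cilia coincided in every sample and cannot be told apart.

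Total counts were 26293486 to 36998935 per sample, and 13839 genes were tested. Wdr35, a gene of intraflagellar transport taken as the targeted gene from knowledge of the study, had 33.3 ± 1.98 counts-per-million units (CPM) in competent and 27.99 ± 1.60 CPM in depleted samples (SD, n = 3), a count over the whole gene that does not test whether it was disrupted. Its level was 1.19-fold lower in depleted samples, without overlap (adjusted p = 0.00245). Of 7 biliary markers, 2 were higher and 4 lower in depleted cells, and their summed level was 5949.7 to 6039.6 CPM in competent and 4267 to 4519 CPM in depleted samples. The 5 endothelial markers summed to at most 0.499 CPM. The 6 fibroblast and stellate markers summed to 1.27 to 1.59 CPM in competent and 2.78 to 3.57 CPM in depleted samples, with Col1a1 2.18-fold higher (adjusted p = 7.37e-05) and Col1a2 at 0. The 6 hepatocyte markers summed to 16.3 to 23.0 CPM in competent and 13.7 to 14.8 CPM in depleted samples, with Ttr 1.42-fold lower (adjusted p = 0.00135) and Cyp3a11 at 0. The 6 leukocyte markers summed to 50.6 to 50.8 CPM in competent and 45.4 to 51.3 CPM in depleted samples, most of it Csf1r (1.09-fold lower, adjusted p = 0.0496). Cd68 was 1.57-fold higher (adjusted p = 4.57e-04), and Ptprc was at 0.312 CPM or less in each sample. The 3 mesothelial markers summed to 1095 to 1167 CPM in competent and 1048 to 1146 CPM in depleted samples, nearly all of it Msln, and Upk3b fell 2.18-fold, from 4.62 ± 0.370 to 2.11 ± 0.492 CPM (adjusted p = 4.61e-05). The part of these marker levels in the results on Rab genes was not tested. In bulk samples fewer cells of a type and less RNA per cell cannot be told apart.

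More Rab mRNAs fell than rose in the cilia-depleted cells. Of the 59 members, 52 passed the filter on low counts, and of these 10 rose, 26 fell and 16 did not pass an adjusted p of 0.05 (edgeR's quasi-likelihood test with Benjamini-Hochberg adjustment over all genes). Over all genes tested 69.2% changed, with 34.9% higher and 34.3% lower. The share of Rab genes that changed, 69.2%, was that of the background, while 50% were lower and 19.2% higher. The median log2 change was -0.20 for the Rab genes and -0.01 for all genes. In 27 tested Rab genes all 3 depleted samples lay below all 3 competent samples, and in 9 above them, where groups did not overlap in 36.1% and 36.4% of all genes, 72.5% in either direction. Changes were mostly small: 12 Rab genes changed by over 1.5-fold (background 28.4%) and 1, Rab20, by over 2-fold (background 9.87%).

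**Figure D1:**
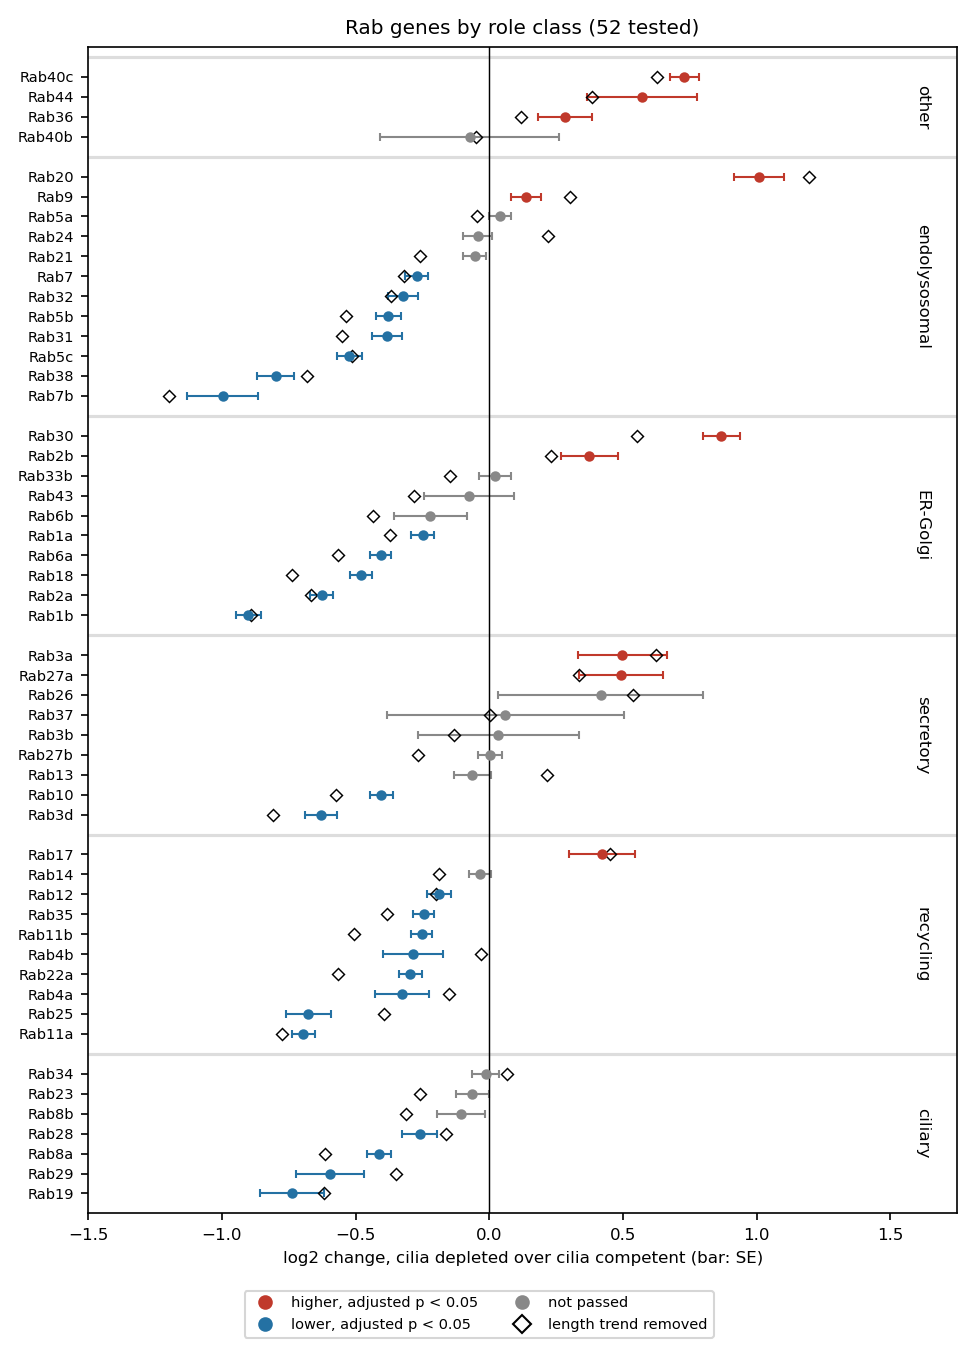
Each row is a tested Rab gene, grouped by role class; filled points are log2 changes of depleted over competent cells with their SE (3 samples a group), and open diamonds the same with the transcript length trend removed. The ciliary class has no point in red, and the largest rise and fall, Rab20 at 1.01 and Rab7b at -0.997, are both endolysosomal.

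The sum of all Rab mRNAs was 3814, 3751 and 3800.3 CPM in the competent and 3019, 3046 and 3128 CPM in the depleted samples. The groups did not overlap, and the sum was 0.809 times as large in depleted cells (exact permutation test, two-sided, p = 0.1, the smallest that 3 against 3 samples allow). Counted per kilobase of the main transcript, so that levels can be compared between genes, the classes held unlike shares of this pool. ER-Golgi Rabs made up 30.2% ± 0.316 of the per-kilobase level in competent and 26.6% ± 0.0781 in depleted cells (SD, n = 3). Endolysosomal Rabs made up 33.9% ± 0.383 and 36.0% ± 0.271, and recycling Rabs 22.2% and 22.05%. The ciliary and secretory classes each held between 6.19% and 6.57% in either group. The other Rabs held 1.19% ± 0.0762 in competent and 2.27% ± 0.0876 in depleted cells. Their summed level rose from 16.9 to 25.9 CPM per kilobase, while that of each role class fell. Rab7 and Rab2a were the most abundant members per kilobase in competent cells, at 142 and 132 CPM per kilobase.

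Most of the Rab genes with high counts fell. Of the 15 Rab genes with a mean of 100 CPM or more, 13 fell, 0 rose and Rab5a and Rab14 did not pass. The median log2 change was -0.40. Among all genes of that level 44% were lower, 36.6% higher and the median was -0.06. Of 22 Rab genes between 10 and 100 CPM, 9 fell and 5 rose (median -0.06), where 40.3% of all genes of that level were lower and 38.6% higher. Of 15 under 10 CPM, 4 fell and 5 rose (median 0.03), against 19.5% lower and 28.1% higher among all genes. Across the 52 tested Rab genes, which share their libraries and are not replicates, Spearman's rho between mean CPM and log2 change was -0.364, and across all genes it was -0.0452. These level groups were chosen after the values were seen.

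**Figure D2:**
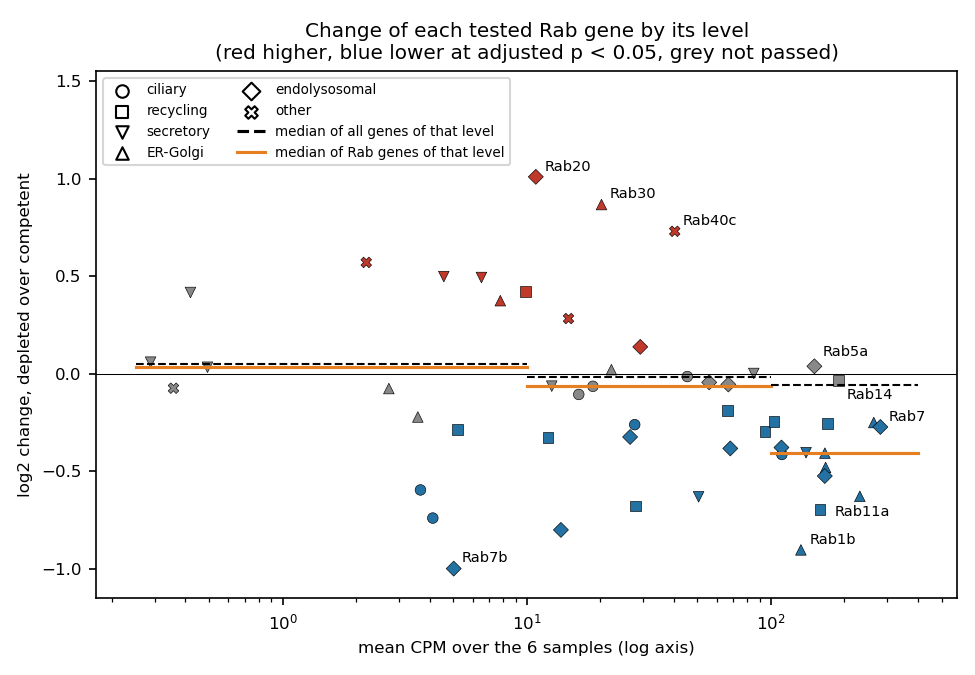
Log2 change of each tested Rab gene against its mean CPM over the 6 samples (log axis), with medians of Rab genes (orange) and of all genes (dashed) in 3 level groups. At 100 CPM or more the Rab median lies at -0.40 and that of all genes at -0.06; Rab20, Rab30 and Rab40c stand above all other Rab genes.

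Transcript length moved with the change over all genes, with a Spearman's rho of 0.323, but little among the tested Rab genes, with 0.0341. Rab genes with main transcripts under 2000 nt had a median log2 change of -0.17 where all such genes had -0.24. Rab genes of 2000 to 4000 nt had -0.25 against 0.04, and those of 4000 nt or more -0.11 against 0.21. With the length trend removed 31 Rab genes were lower and 8 higher, against 39.4% and 30.2% of all genes, and the Rab median was -0.26 where that of all genes was -0.06.

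To show the DNA in front of genes that moved apart, the 250 bases before the start of the 2 highest and 2 lowest changes among Rab genes with at least 10 CPM and an entry in the RefSeq promoter table (GRCm38.p6) are given 5′ to 3′ on the gene's strand. RefSeq entries were matched for 48 of the 59 members. Capitals mark matches on either strand of 5 short motifs: the GC box GGGCGG, the CCAAT box CCAAT, the E-box CACGTG, the core TGACG of cAMP response elements and the AP-1 motif TGANTCA. Matches of different motifs may share letters. Rab20 (chr8:11478641-11478890, minus strand) and Rab40c (chr17:25919715-25919964, minus strand) rose, and Rab1b (chr19:5106997-5107246, minus strand) and Rab11a (chr9:64737757-64738006, minus strand) fell. Starts are those of RefSeq and can lie some bases away from the gene ends given below, which are those of GENCODE in the same assembly, GRCm38.
Rab20: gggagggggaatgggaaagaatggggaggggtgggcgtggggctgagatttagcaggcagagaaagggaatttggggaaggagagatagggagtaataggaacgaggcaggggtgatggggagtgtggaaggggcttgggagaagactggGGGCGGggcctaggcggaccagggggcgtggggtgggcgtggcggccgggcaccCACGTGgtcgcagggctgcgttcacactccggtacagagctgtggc
Rab40c: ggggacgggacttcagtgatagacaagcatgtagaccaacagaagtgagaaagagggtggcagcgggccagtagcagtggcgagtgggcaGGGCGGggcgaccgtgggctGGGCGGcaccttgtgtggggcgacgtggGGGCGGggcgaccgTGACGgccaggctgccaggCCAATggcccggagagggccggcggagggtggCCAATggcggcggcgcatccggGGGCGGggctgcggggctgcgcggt
Rab1b: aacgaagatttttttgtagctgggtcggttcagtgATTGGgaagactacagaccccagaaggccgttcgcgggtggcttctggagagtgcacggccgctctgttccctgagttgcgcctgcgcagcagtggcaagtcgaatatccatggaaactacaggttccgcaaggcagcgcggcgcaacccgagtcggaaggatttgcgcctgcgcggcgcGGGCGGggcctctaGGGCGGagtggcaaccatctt
Rab11a: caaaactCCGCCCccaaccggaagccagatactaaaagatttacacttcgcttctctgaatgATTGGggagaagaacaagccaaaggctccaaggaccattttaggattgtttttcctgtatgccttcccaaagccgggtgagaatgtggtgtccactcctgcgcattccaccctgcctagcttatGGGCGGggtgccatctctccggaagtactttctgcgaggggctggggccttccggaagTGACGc

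All 4 windows held a GC box, which stood in 40 of the 60 windows of Rab genes (66.7%) and in 32.7% of all 32851 windows of the table. Rab40c had 4 of them and 2 CCAAT boxes. The E-box was present in the Rab20 window and absent from the other 3, and it occurred in 5 Rab windows (8.33%) and 6.02% of all windows. The core TGACG occurred in 40.0% of Rab windows against 17.8% of all, and was present in both Rab40c, which rose, and Rab11a, which fell. CCAAT boxes stood in 40.0% and 33.8%, and the AP-1 motif in 2 Rab windows and 6.75% of all. These are matches of letters in a short window and not binding sites.

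The ciliary Rabs fell or missed the threshold. Among the 7 tested there were 4 that fell, 0 that rose and 3 that did not pass. Over all genes tested 34.3% were lower and 34.9% higher, and whether a role class differed from these shares was not tested. The median log2 change of the ciliary Rabs was -0.26. Rab8a (chromosome 8, 72161200 to 72183904, plus strand), which drives the growth of the ciliary membrane and also serves exocytosis, was among the more abundant of them per kilobase (27.9 CPM per kilobase in competent cells). Its level was 123, 132 and 125 CPM in the competent and 91.0, 97.4 and 97.0 CPM in the depleted samples. Every depleted sample lay below every competent one, and Rab8a fell 1.33-fold (log2 change -0.41, SE 0.0449, adjusted p = 2.19e-06). The close relative Rab8b did not pass, at 17.0 ± 1.78 against 15.7 ± 1.40 CPM (SD, n = 3; adjusted p = 0.31). Rab34, which is needed for cilia that begin on an internal vesicle, was at 48.2, 44.6 and 44.2 CPM in competent and 46.6, 44.3 and 44.9 CPM in depleted cells. The groups overlapped and Rab34 did not pass (log2 change -0.01, SE 0.0508, adjusted p = 0.825). Rab23, which acts on Hedgehog signalling at the cilium, overlapped as well, at 19.5, 18.3 and 19.4 against 18.7, 17.99 and 18.1 CPM (log2 change -0.06, SE 0.0613, adjusted p = 0.373). It passed with the length trend removed (log2 change -0.26, adjusted p = 0.00156), and so did Rab8b (log2 change -0.31, adjusted p = 0.00599).

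The other 3 ciliary Rabs were lower. Rab19, a little-studied member linked to the clearing of cortical actin before a cilium grows, was at 5.23, 5.09 and 5.15 CPM in competent and 3.21, 2.87 and 3.20 CPM in depleted samples. Its groups stood apart, and it fell 1.67-fold (log2 change -0.74, SE 0.119, adjusted p = 9.04e-05). Rab29, which recruits the kinase LRRK2 to membranes, fell 1.51-fold, from 4.17, 4.70 and 4.41 to 2.73, 3.02 and 3.00 CPM (adjusted p = 9.43e-04). Rab28, which is carried within cilia and is needed in photoreceptors, was 1.198-fold lower, at 29.9, 27.8 and 32.8 against 24.3, 25.9 and 25.3 CPM (adjusted p = 0.00302). For both, each depleted sample was below each competent sample, and the falls were smaller with the length trend removed (log2 changes -0.35 and -0.16).

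Recycling Rabs return membrane and receptors from endosomes to the surface. Before the length trend was removed they were the class with most members lower. Of the 10 tested, 8 fell, 1 rose and Rab14 did not pass (median log2 change -0.27). Among all genes 34.3% were lower and 34.9% higher. With the length trend removed 7 recycling Rabs were lower, against 8 of 12 endolysosomal, 7 of 10 ER-Golgi and 6 of 7 ciliary Rabs. Rab14, which acts between the Golgi and endosomes, was lower with the length trend removed (log2 change -0.19, adjusted p = 3.36e-04, against -0.03). Rab11a (chromosome 9, 64715299 to 64737758, minus strand), the mark of the recycling endosome that delivers cargo towards the cilium base, fell most. It was at 195, 196 and 199 CPM in competent and 115, 122 and 127 CPM in depleted samples, without overlap (1.619-fold lower, log2 change -0.70, SE 0.0441, adjusted p = 1.22e-08). Its paralogue Rab11b fell from 186 ± 3.89 to 156 ± 3.74 CPM (SD, n = 3; log2 change -0.25, adjusted p = 9.04e-05, or -0.50 after removal of the length trend). Rab25, the epithelial member of the same subfamily, fell 1.60-fold, from 34.5, 35.5 and 33.2 to 20.4, 19.1 and 24.9 CPM (adjusted p = 6.78e-06). Both Rab11 genes and Rab25, the whole subfamily, were thus lower. Rab35, Rab22a and Rab12, which act in traffic through endosomes, fell with log2 changes of -0.25, -0.29 and -0.19.

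The fast-recycling Rab4a was at 15.6, 12.1 and 13.3 CPM in competent and 11.2, 9.79 and 11.6 CPM in depleted samples, so that its groups lay next to each other (log2 change -0.33, adjusted p = 0.012). The call was lost with the length trend removed (log2 change -0.15, adjusted p = 0.175), and leaving out a sample gave log2 changes, with adjusted p in brackets, of -0.22 (0.0618) without competent replicate 1 and -0.25 (0.0649) without depleted replicate 2. Rab4b fell slightly (log2 change -0.28, adjusted p = 0.0389), but DESeq2 did not call it (adjusted p = 0.114), nor did the fit without the length trend (log2 change -0.03, adjusted p = 0.834). Of its exon length, 65.0% is shared with a gene on the same strand. It was also lost on leaving out single samples, with log2 changes and adjusted p of -0.22 (0.143) without competent replicate 1, -0.30 (0.0632) without competent replicate 3, -0.29 (0.0821) without depleted replicate 2 and -0.24 (0.116) without depleted replicate 3. Rab17, found mainly in polarized epithelial cells, where it serves transcytosis, was the recycling Rab that rose. It had 8.69, 7.53 and 9.08 CPM in competent and 13.7, 9.76 and 10.7 CPM in depleted samples (log2 change 0.42, SE 0.123, adjusted p = 0.00768), and depleted replicate 1 was the highest of all.

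**Figure D3:**
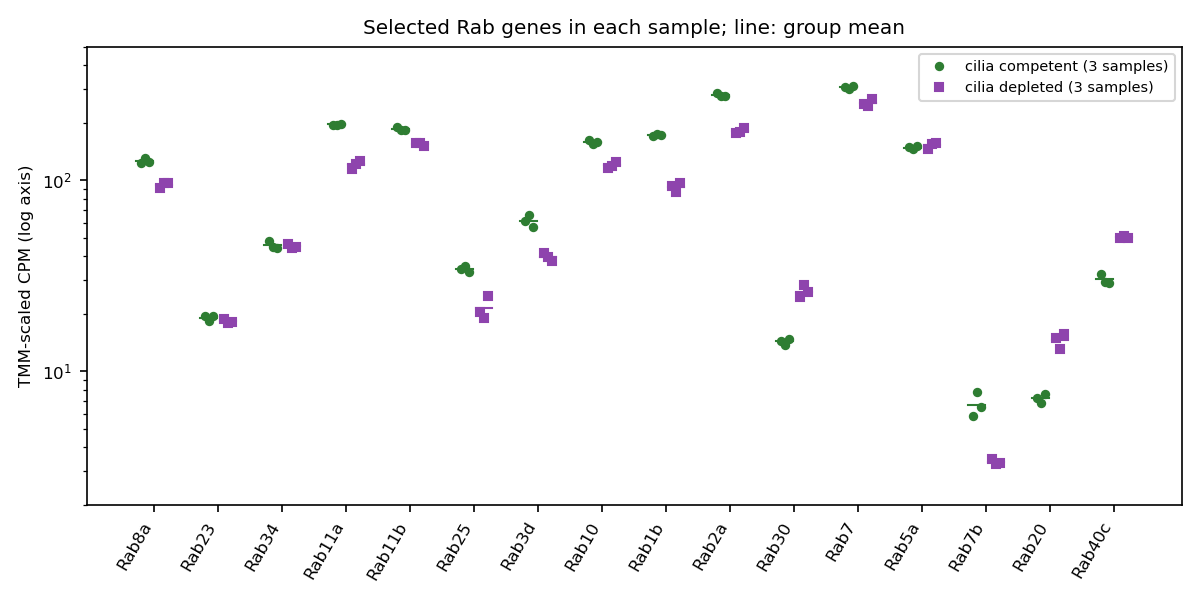
TMM-scaled CPM (log axis) of 16 Rab genes in each of the 3 competent (circles) and 3 depleted (squares) samples, with lines at group means. Rab11a, Rab1b and Rab7b are lower and Rab20, Rab30 and Rab40c higher in every depleted sample, while Rab23, Rab34 and Rab5a overlap.

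The secretory Rabs, which bring granules and vesicles to the plasma membrane, moved both ways. Among the 9 tested, as many rose (2) as fell (2), and 5 did not pass. Their median log2 change of 0.03 changed sign between alternatives. Rab3d, of regulated secretion in exocrine and other gland cells, was at 61.6, 66.0 and 56.7 CPM in competent and 41.7, 39.8 and 37.8 CPM in depleted samples, and fell 1.547-fold (log2 change -0.63, SE 0.0609, adjusted p = 7.16e-07). Rab10, which serves basolateral and insulin-regulated traffic, fell 1.32-fold, from 162, 156 and 158 to 116, 119 and 124 CPM (adjusted p = 1.48e-06). In both genes the groups stood apart. Rab3a, known from synaptic vesicles, rose at a low level, from 4.14, 2.69 and 4.54 to 5.47, 4.96 and 5.66 CPM (log2 change 0.50, SE 0.167, adjusted p = 0.0169). Its call was lost on leaving out a sample, with log2 changes and adjusted p of 0.30 (0.0628) without competent replicate 2 and 0.45 (0.0604) without depleted replicate 3. Rab27a, which tethers secretory granules and exosome-bearing endosomes, was at 4.37, 7.16 and 4.73 CPM in competent and 7.45, 8.11 and 7.33 CPM in depleted samples. Competent replicate 2 lay close to the depleted samples, and the rise (log2 change 0.49, SE 0.158, adjusted p = 0.013) was lost with the length trend removed (log2 change 0.33, adjusted p = 0.0607) and without competent replicate 3 (log2 change 0.39, adjusted p = 0.0609). Rab27b, of the same subfamily, did not pass, at 85.0 ± 2.34 against 85.2 ± 3.37 CPM. With the length trend removed it was lower (log2 change -0.27, adjusted p = 3.89e-05), and Rab13, of junction traffic, was higher (log2 change 0.21, adjusted p = 0.0149) where its log2 change was otherwise -0.06 (adjusted p = 0.443). Rab3b, Rab26 and Rab37 were under 1 CPM in every sample and did not pass.

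The Rabs of the early secretory pathway fell where they were abundant, as did 13 of the 15 Rab genes of 100 CPM or more over all classes. The 10 ER-Golgi Rabs tested included 5 that fell, 2 that rose and 3 without a call, at a median log2 change of -0.23. Rab1b (chromosome 19, 5099205 to 5107072, minus strand), which with Rab1a directs vesicles from the ER to the Golgi, was at 171, 174 and 173 CPM in competent and 93.7, 86.9 and 97.1 CPM in depleted samples. It fell 1.87-fold without overlap (log2 change -0.90, SE 0.0461, adjusted p = 1.53e-09), and Rab1a fell 1.19-fold (adjusted p = 1.34e-04). Rab2a, which acts in traffic between the ER and the Golgi and in lysosome delivery, fell 1.54-fold, from 289, 276 and 278 to 176, 180.4 and 189 CPM (adjusted p = 2.83e-08). Rab18, of the ER and lipid droplets, fell 1.39-fold, from 196, 191 and 198 to 138, 141 and 141 CPM (adjusted p = 1.56e-07). Rab6a, which serves retrograde traffic at the Golgi, fell as well (log2 change -0.41, adjusted p = 5.74e-07). Each of these 5 had all depleted samples below all competent ones, and each remained lower with the length trend removed (log2 changes -0.37 to -0.89).

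Rab30 (chromosome 7, 92741603 to 92844535, plus strand), a Golgi Rab, went the other way. It had 14.5, 13.7 and 14.8 CPM in competent and 24.4, 28.1 and 25.9 CPM in depleted samples, the groups well apart, and rose 1.82-fold (log2 change 0.87, SE 0.0691, adjusted p = 1.09e-07). Its main transcript, of 9456 nt, was the longest among the tested Rab genes, and with the length trend removed the log2 change was 0.55 (adjusted p = 4.00e-06). Rab2b also rose (log2 change 0.38, adjusted p = 0.00643), and 64.0% of its exon length overlaps genes on the opposite strand, mainly Tox4. Tox4 was at 48.7 CPM in competent and 61.7 CPM in depleted cells and Rab2b at 6.79 and 8.80 CPM, and the part of Tox4 in the Rab2b counts was not tested. The strand setting of the counting is not given in the sources used here, and without strand such reads cannot be told apart. The Rab2b call was also lost with the length trend removed (log2 change 0.23, adjusted p = 0.0627). Rab6b, Rab33b and Rab43 did not pass (log2 changes -0.22, 0.02 and -0.08). After removal of the length trend Rab6b (log2 change -0.44, adjusted p = 0.0108) and Rab33b (-0.15, adjusted p = 0.0412) were lower. For Rab43, 75.4% of the exon length is shared with a gene on its own strand.

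Endolysosomal Rabs held both the largest rise and the largest fall of the family. Of the 12 tested 7 fell, 2 rose and 3 had no call, at a median log2 change of -0.30. Rab20 (chromosome 8, 11453518 to 11478710, minus strand), known for phagosome maturation and for its induction by low oxygen, was at 7.25, 6.85 and 7.59 CPM in competent and 14.9, 13.1 and 15.8 CPM in depleted samples. All depleted samples lay far above the competent ones, and Rab20 rose 2.01-fold (log2 change 1.01, SE 0.0926, adjusted p = 4.23e-07), or 2.29-fold with the length trend removed. An opposite-strand gene covers 25.6% of its exon length, at 0.707 CPM in competent and 1.26 CPM in depleted cells, and its part in the Rab20 counts was not tested. Rab7b (chromosome 1, 131688695 to 131715439, plus strand), which acts between late endosomes and the Golgi, fell 2.00-fold, from 5.81, 7.75 and 6.51 to 3.49, 3.27 and 3.31 CPM (log2 change -0.997, SE 0.132, adjusted p = 1.41e-05). Rab38, of lysosome-related organelles, fell 1.74-fold, from 17.3, 18.1 and 17.2 to 10.3, 9.73 and 10.3 CPM (adjusted p = 2.75e-07). Its relative Rab32 fell as well (log2 change -0.32, adjusted p = 1.74e-04).

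Of the 3 Rab5 genes, whose products mark early endosomes, Rab5b and Rab5c fell and Rab5a did not pass. Rab5c fell 1.44-fold, from 206, 191 and 192 to 134, 132 and 143 CPM (adjusted p = 3.61e-07), and Rab5b fell 1.299-fold, from 125 ± 3.84 to 96.1 ± 4.84 CPM (SD, n = 3; adjusted p = 7.76e-06). Rab5a was at 149, 146 and 151 CPM in competent and 147, 155 and 157 CPM in depleted samples, overlapping, and did not pass (log2 change 0.04, SE 0.0415, adjusted p = 0.423). Per kilobase, Rab5c remained the highest of the 3 in both groups. Rab5c stood at 102 and 71.2 CPM per kilobase, Rab5a at 62.9 and 64.6 and Rab5b at 39.3 and 30.2. Rab7 (chromosome 6, 87999106 to 88045270, minus strand), the late endosome and lysosome Rab, was the most abundant Rab mRNA per kilobase in both groups. It was at 308, 302 and 311 CPM in competent and 250.2, 247 and 266 CPM in depleted samples, without overlap, and fell 1.21-fold (log2 change -0.27, SE 0.0435, adjusted p = 8.26e-05). Rab31, which acts between the trans-Golgi network and endosomes, fell (log2 change -0.38, adjusted p = 4.46e-05). Rab9, of traffic from late endosomes to the trans-Golgi network, rose slightly (log2 change 0.14, adjusted p = 0.0424), but DESeq2 made no such call (adjusted p = 0.122), and neither did edgeR without a filter (adjusted p = 0.0823) or with upper-quartile scaling (adjusted p = 0.182). Leaving out single samples also lost it, with log2 changes and adjusted p of 0.12 (0.116) without competent replicate 1, 0.11 (0.14) without competent replicate 2, 0.14 (0.075) without depleted replicate 1 and 0.11 (0.144) without depleted replicate 3. Rab21, of integrin uptake, and Rab24, linked to autophagy, did not pass. Once the length trend was removed Rab21 was lower (log2 change -0.26) and Rab24 and Rab9 higher (0.22 and 0.30), although 62.4% of the Rab24 exon length overlaps the opposite strand, mainly Prelid1, at 247 CPM in competent and 147 CPM in depleted cells, whose part was not tested.

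Among the other Rabs, Rab40c (chromosome 17, 25882114 to 25919727, minus strand), whose protein carries a SOCS box that joins it to a ubiquitin ligase, was at 32.5, 29.5 and 29.2 CPM in competent and 50.2, 50.8 and 50.2 CPM in depleted samples. The groups were far apart, and Rab40c rose 1.66-fold (log2 change 0.73, SE 0.0530, adjusted p = 4.50e-08). Its paralogue Rab40b was under 1 CPM in every sample and did not pass. Rab44, a large atypical Rab, rose from 2.20, 1.90 and 1.22 to 2.85, 2.49 and 2.55 CPM (log2 change 0.57, SE 0.205, adjusted p = 0.0242), and Rab36 was at 14.8, 13.1 and 12.1 CPM in competent and 18.8, 14.2 and 15.9 CPM in depleted samples (log2 change 0.28, SE 0.102, adjusted p = 0.025). Depleted and competent samples overlapped for Rab36. Both calls were lost with the length trend removed (log2 changes 0.38 and 0.12). On leaving out single samples the Rab44 values were 0.35 (0.117) without competent replicate 3 and 0.52 (0.0705) without depleted replicate 1, and those of Rab36 were 0.26 (0.0572) without competent replicate 2, 0.21 (0.12) without competent replicate 3 and 0.18 (0.126) without depleted replicate 1, each a log2 change with its adjusted p.

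The 7 members that did not pass the filter on low counts were Rab3c, Rab9b, Rab15, Rab33a, Rab39, Rab39b and Rab42. Rab3c had 0 counts in all 6 samples, which allows up to 0.0797 to 0.119 CPM at a floor of 3 counts per sample, and Rab39 had 1 count in all. The other 5 stayed at or below 0.277 CPM in every sample. Such floors cover counting error only.

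Ratios between paralogues, computed with a pseudocount of 0.1 CPM, do not depend on a scaling that is the same for all genes of a library, but do depend on a length correction where transcripts differ in length. Of 14 pairs in which both genes were tested, 12 had ratios whose groups did not overlap (exact permutation test over samples, two-sided, p = 0.1 each, the smallest the design allows, and 0.117 after adjustment over the 14 pairs). Among all single genes tested, groups did not overlap in 72.5%, and whether pairs of Rab genes separate more often than other pairs was not tested. The pairs of Rab5a, Rab5b and Rab5c share genes, so the 14 pairs are not separate observations. The design cannot bring a pair below 0.05. The log2 ratio of Rab11a to Rab11b was 0.08 ± 0.0373 in competent and -0.36 ± 0.0993 in depleted samples (SD, n = 3), and per kilobase Rab11a stood at 84.2 and 51.96 and Rab11b at 30.4 and 25.5 CPM per kilobase. The log2 ratio of Rab5a to Rab5c was -0.40 ± 0.0624 in competent and 0.16 ± 0.0537 in depleted samples. For Rab1a to Rab1b it was 0.73 ± 0.0227 in competent and 1.38 ± 0.0733 in depleted samples, a 1.57-fold shift towards Rab1a. For Rab8a to Rab8b it was 2.90 ± 0.205 in competent and 2.59 ± 0.0773 in depleted samples. The largest shifts of the 14 pairs were those of Rab3a to Rab3d, 2.21-fold towards Rab3a, and of Rab2a to Rab2b, 1.98-fold towards Rab2b. Both pairs hold a member of low level whose own call was lost under some alternatives. Rab3a was at 3.79 CPM in competent and 5.36 CPM in depleted samples, and the SD of its log2 ratio was 0.494 in competent samples. Rab2b was at 6.79 and 8.80 CPM, and 64.0% of its exon length overlaps genes on the opposite strand. Without the length trend the difference of depleted minus competent was -0.27 for Rab11a to Rab11b, against -0.44. This comparison, added after the data were seen and without a test, kept the sign of the difference in 12 of 14 pairs, all but Rab5b to Rab5c and Rab22a to Rab31. The ratios of Rab4a to Rab4b and of Rab22a to Rab31 overlapped between the groups, with exact permutation p of 0.7 and 0.3.

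**Figure D4:**
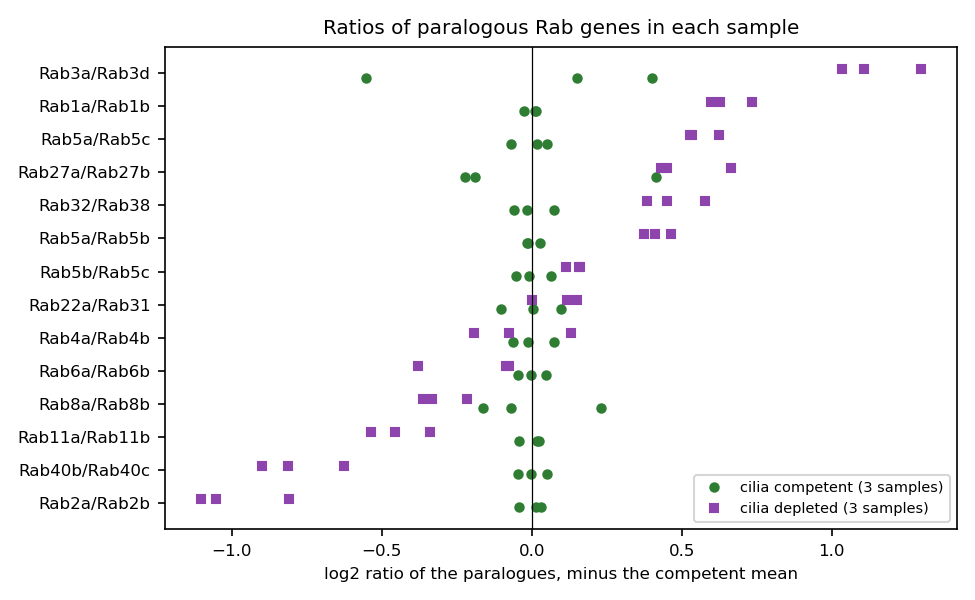
Log2 ratios of 14 pairs of paralogous Rab genes in each sample, with the mean of the 3 competent samples set to 0. Depleted samples (squares) stand clear of competent samples (circles) except for Rab4a to Rab4b and Rab22a to Rab31; for Rab11a to Rab11b the difference of the group means is -0.44.

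Of 123 tested genes that act on Rabs, 65 rose and 20 fell (52.8% and 16.3%, median log2 change 0.21). These shares are near those of all genes with transcripts of 4000 nt or more, of which 50.4% rose and 21.9% fell at a median of 0.21. After removal of the length trend 43 were higher and 47 lower. Of 7 genes of Rab escort and prenylation, which attach the lipid anchor and carry inactive Rabs through the cytosol, 4 fell, 1 rose and 2 had no call (median -0.23). Chml, a Rab escort protein gene, fell 1.87-fold, from 26.6 ± 1.53 to 14.2 ± 0.231 CPM (SD, n = 3; adjusted p = 3.74e-08), and Rabac1, whose protein binds prenylated Rabs, fell 1.83-fold (adjusted p = 3.23e-09). Rabggtb, the catalytic subunit gene of Rab geranylgeranyl transferase, rose 1.81-fold, from 62.0 ± 0.515 to 112 ± 4.19 CPM (adjusted p = 1.41e-09).

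Of 37 genes of exchange factors, which activate Rabs, and their cofactors, 21 rose, 6 fell and 10 had no call (median 0.29). Rab3il1, a relative of Rabin8, rose 2.98-fold from 1.53 ± 0.218 to 4.58 ± 0.603 CPM, and the DENN-domain genes Dennd5b and Dennd4c rose 2.48-fold and 1.90-fold (adjusted p = 2.02e-10 and 8.52e-08). Rab3ip, which encodes Rabin8, the link from Rab11 to Rab8 at the cilium base, was at 73.5, 70.9 and 73.4 CPM in competent and 78.6, 78.4 and 76.2 CPM in depleted samples and narrowly missed the threshold (log2 change 0.10, SE 0.0418, adjusted p = 0.0508). Its groups did not overlap, and it passed with the length trend removed (log2 change 0.13, adjusted p = 0.0129) and with voom (adjusted p = 0.0495) but not with DESeq2 (adjusted p = 0.129). Of 31 GTPase-activating proteins, which switch Rabs off, 17 rose and 4 fell (median 0.19), led by Tbc1d4 (1.74-fold), Tbc1d17 (1.66-fold) and Tbc1d2 (1.61-fold). For Tbc1d17, 36.1% of the exon length overlaps the opposite strand. Of 45 effectors, 23 rose and 6 fell (median 0.21). The shares higher and lower were 56.8% and 16.2% for exchange factors, 54.8% and 12.9% for activating proteins and 51.1% and 13.3% for effectors. Among all genes with transcripts of 4000 nt or more they were 50.4% and 21.9%, and among all genes tested 34.9% and 34.3%. Whether a list differed from these was not tested. The dynein adaptor gene Bicd1, which works with Rab6, rose 2.14-fold from 12.7 ± 1.08 to 27.1 ± 0.672 CPM, Rilp, which joins Rab7 to dynein, rose 1.88-fold, and the exocyst gene Exoc8 fell 1.69-fold. Lrrk1, Lrrk2 and Ppm1h, the kinases and a phosphatase of Rabs, rose with log2 changes of 0.37 to 0.39.

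These genes have long transcripts, with a median of 4468 nt against 2582 nt for the tested Rab genes. With the length trend removed rises and falls came closer in number in the 3 largest lists: among exchange factors 16 were higher and 12 lower, among GTPase-activating proteins 10 and 12, among effectors 16 and 17, and the 3 genes of Rab phosphorylation did not pass. The median log2 change of the activating proteins then turned to -0.01, and that of the escort list was -0.36. The exchange factors kept a median of 0.10 and the effectors one of 0.02, while more Rab genes fell than rose in both fits.

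**Figure D5:**
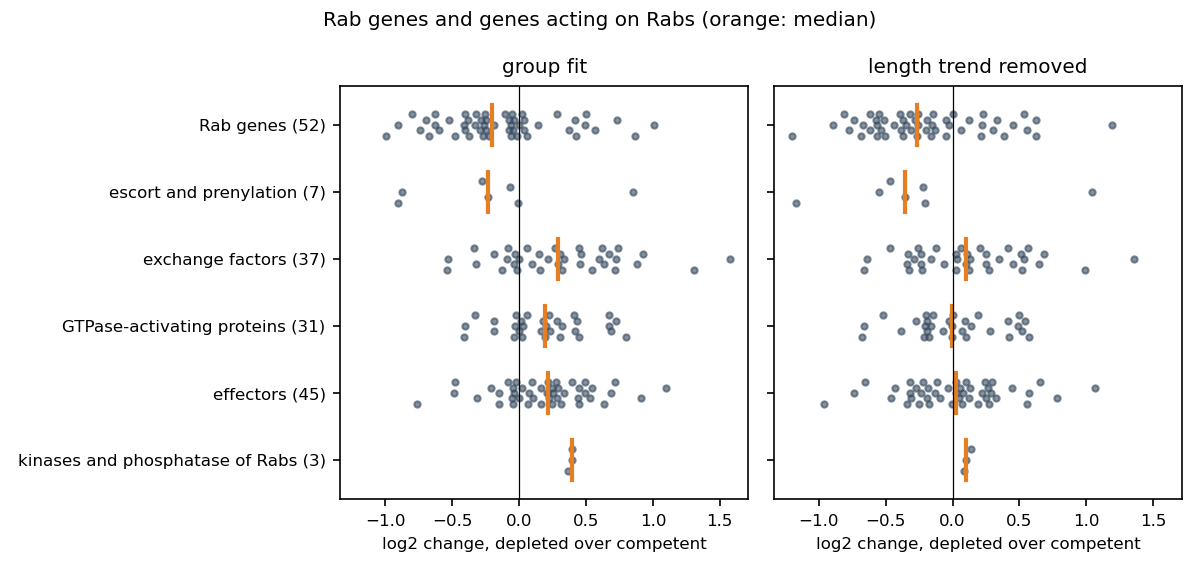
Log2 changes of the tested Rab genes and of 5 lists of genes acting on Rabs (numbers tested in brackets), in the group fit (left) and with the transcript length trend removed (right); orange bars are medians. The Rab median is -0.20 on the left and -0.26 on the right, while that of the exchange factors falls from 0.29 to 0.10.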

How the data were processed

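Libraries of 3 cilia-competent and 3 cilia-depleted samples were made from 500 ng of total RNA with a directional kit after poly-A selection, per the labels' protocols. The authors deposited 1 table of raw read counts for each gene and sample, without normalization. The submitters' processing notes name GRCm38, STAR 2.7.1a, featureCounts, cutadapt 1.16 and DESeq2 1.34.0, with FastQC 0.11.9 and MultiQC 1.3. The annotation and strand setting of the counting are not given in the sources used here. Columns named WT were taken as competent and those named KO as depleted.

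edgeR 4.0.16 (R 4.3.3) was used for the main tests (filterByExpr, TMM scaling, quasi-likelihood F-test, two-sided, Benjamini-Hochberg adjustment over all 13839 genes, threshold 0.05). The model held the group alone, over all 6 samples, and log2 changes are depleted over competent. CPM values are scaled by TMM over the tested genes. Positions and main transcript lengths are from GENCODE M21 (GRCm38), in which 31976 of 32061 identifiers were found. The length trend was removed by a loess curve (span 0.5) per library, used as gene-wise offsets. The functions were tested on simulated counts, with changes set in a small part of the genes and no length trend put in. This cannot show how the scaling or the length correction behaves where most genes change. Alternatives were DESeq2 1.42.0, voom in limma 3.58.1, scaling by RLE or the upper quartile, other filters, a replicate block, leaving out each sample, and a threshold of 0.01. Chi-square divided by its degrees of freedom was 5.54 to 9.86 for 2 samples of one group and 299.6 to 337 across groups, above the counting noise that a library counted again would leave. This does not tell separate cultures from repeated preparations of the same cells.

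Named were, in each class, the 4 or fewer called members that changed most, and Rab8a, Rab11a, Rab23, Rab34, Rab5a and Rab7, each with all 6 values; other members by fold or counts; and in each list of genes acting on Rabs the 3 or fewer called members that changed most, and Rab3ip. Some genes of these lists are not reported here by name. The members, classes and lists were chosen with earlier results of these data known.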

Additional observations from a re-analysis of the deposited data

How the results depend on the processing

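Counting each tested Rab gene under each alternative, 706 values kept direction and side of the threshold. Another 37 lost the call, 6 gained it without a change of sign and 27 changed sign. Values that changed sign were counted only as such, even where they gained a call. With the length trend removed this held for Rab13, Rab24, Rab27b and Rab33b (edgeR, adjusted p of 0.0149, 0.00145, 3.89e-05 and 0.0412). The number of Rab genes lower stayed within 1.5 times of 26 under every alternative run, and the number higher fell to 5 at an adjusted p below 0.01. The median log2 change of Rab genes was -0.24 with a filter of 1 CPM in 3 samples, -0.26 with the length trend removed, -0.25 with upper-quartile scaling and -0.23 to -0.16 on leaving out a sample. The filter left fewer genes, and the cause of the other shifts was not tested. With the length trend removed the median of all genes moved too, from -0.01 to -0.06.

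With the length trend removed, 1 ER-Golgi and 1 other Rab were higher; 10 GTPase-activating proteins were higher and 12 lower, 17 effectors and 12 exchange factors were lower, and 0 of the 3 kinases and phosphatase were higher. Endolysosomal Rabs higher numbered 1 with DESeq2, without a filter, with upper-quartile scaling and at 0.01, and 1 to 2 on leaving out a sample. At 0.01, 1 other Rab and 0 secretory Rabs were higher, and 3 exchange factors were lower, as with DESeq2 (3). On leaving out a sample these ranged over 1 to 3, 1 to 2 and 3 to 5.

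Sign changes of single genes concerned those that did not pass in the group fit. With the length trend removed the log2 changes were 0.21 for Rab13, 0.22 for Rab24, -0.27 for Rab27b, -0.15 for Rab33b, 0.065 for Rab34, -0.13 for Rab3b and -0.045 for Rab5a. With upper-quartile scaling they were -0.048 for Rab27b, -0.028 for Rab33b, -0.016 for Rab3b and -0.011 for Rab5a. Rab27b was at -9.45e-05 with DESeq2 and -0.0060 without a filter. The secretory median was -0.025 with the filter of 1 CPM and -0.016 with upper-quartile scaling. On leaving out a sample it ranged over -0.022 to 0.033, Rab24 over -0.095 to 0.015, Rab27b over -0.022 to 0.033, Rab33b over -0.022 to 0.042, Rab34 over -0.044 to 0.024, Rab37 over -0.17 to 0.47, Rab3b over -0.099 to 0.12, Rab40b over -0.16 to 0.0096, Rab43 over -0.21 to 0.067 and the Rab4a to Rab4b log2 ratio difference over -0.13 to 0.028. When the length trend was taken out, an alternative chosen after seeing the data, the log2 ratio difference turned from 0.14 to -0.022 for Rab5b to Rab5c and from 0.090 to -0.017 for Rab22a to Rab31.

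The replicate numbers showed no sign of pairing: same-numbered samples had deviations from their group means that correlated at -0.03 to 0.01. For differently numbered samples across groups the values were -0.07 to 0.09. With 3 samples a group this cannot decide whether same-numbered samples share a culture or mouse. With the replicate block the count of all genes higher was 4828 and that of all genes lower 4698, and 10 Rab genes were higher and 25 lower; Rab4b was the Rab call that was lost. Counts under about 1 CPM left the SE of Rab26, Rab37, Rab3b and Rab40b at 0.301 to 0.444, so that changes of their size were not detectable at this depth.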
